A study of Mus musculus with 31 samples.

Results

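Aminoacyl-tRNA synthetases are the enzymes that join each amino acid to its transfer RNA (tRNA). They were taken from the array annotation by gene symbol: a letter that stands for an amino acid followed by ars, with or without a closing 1 or 2, together with Farsa, Farsb and Eprs. The rule found 32 of the 17097 genes that the annotation names. Where a gene had several probe sets, the one with the highest average intensity across the 31 arrays was used. By the same rule 17 genes counted as cytosolic and 15 genes, whose symbols end in 2, as mitochondrial. Gars and Kars each encode both a cytosolic and a mitochondrial form and counted as cytosolic. The cytosolic enzymes for cysteine, aspartate and threonine and the mitochondrial enzymes for aspartate and tyrosine were not analysed here.

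The arrays measured liver RNA of male mice, and the aim was to identify mRNAs that IRE1α cleaves and direct target genes of XBP1. IRE1α, encoded by Ern1, is a sensor of stress in the endoplasmic reticulum (ER) that splices the Xbp1 mRNA, and XBP1 is the transcription factor made from the spliced mRNA. The 31 arrays fell into 8 groups of 4 arrays, except untreated Ire1 ko with 3, and the labels call them biological replicates. In the Xbp1 experiment, WT littermates and Xbp1 ko mice were 14 weeks old, fed and untreated. In the siRNA experiment, Xbp1 ko mice of 9 weeks had received siRNA labelled as luciferase, a control, or IRE1 and were sampled after 8 days. In the Ire1 experiment, WT and Ire1 ko mice of 14 weeks were fed and untreated or had received 2 mg/kg tunicamycin for 6 h. No group is labelled as given the vehicle alone, so tunicamycin and the handling that came with it cannot be told apart. Tunicamycin inhibits the glycosylation of proteins in the ER, where unfolded proteins then build up. The strain is given as C57BL/6 for the WT and Xbp1 ko mice and as mixed for the Ire1 ko mice, although the untreated WT mice are also called their littermates. Strain and Ire1 genotype therefore cannot be told apart. The labels state neither the promoter or Cre that drove a deletion nor the cells in which it took place.

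In the cytosol, synthetases supply charged tRNA for the translation of nuclear-encoded mRNAs, and several of them sit in a multisynthetase complex held together by the scaffold proteins AIMP1, AIMP2 and EEF1E1. A separate set, encoded in the nucleus and imported, charges the tRNAs of mitochondria, which translate the few mRNAs of the mitochondrial genome. When ER stress activates the kinase PERK, the transcription factor ATF4 is made, and genes for amino acid uptake, amino acid synthesis and cytosolic tRNA charging are known targets of ATF4.

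All values are probe set intensities on a linear scale, rounded by the depositors to whole numbers, with a lowest value of 3 and a median of 5 on every array. Dim genes therefore sat close to a floor where a step of 1 is a large step on the log2 scale and where fold changes are compressed. Arrays of a group correlated at 0.984 to 0.993. Xbp1 averaged 944 ± 140 (SD, n = 4) in WT littermates and 470 ± 80.3 (SD, n = 4) in Xbp1 ko. In untreated WT, Ern1 averaged 149 ± 36.6 (SD, n = 4). The untreated Ire1 ko arrays gave 150 ± 2.52 (SD, n = 3). The deleted part of either gene is not given, so these values check nothing about the loss of the protein. Ern1 went against the siRNA labels, with 24.3 ± 7.46 (SD, n = 4) in the libraries labelled luciferase siRNA and 205 ± 33.3 (SD, n = 4) in those labelled IRE1 siRNA. Directions in that experiment are as labelled. In untreated Ire1 ko, replicate 2 stood apart for the stress gene Ddit3, at 117 against 14 and 16. The liver label matched the markers: the 7 hepatocyte markers summed to 33159 to 41557, and all markers of cholangiocytes, lymphocytes and exocrine pancreas stayed below 16 on every array. In bulk tissue, fewer cells of a type and less RNA per cell cannot be told apart.

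Tunicamycin raised nearly the whole cytosolic set in WT liver, while fewer of the mitochondrial genes were called. Of 17 cytosolic synthetases 16 rose and 1, Mars1, fell, with a median log2 change of 1.49, or 2.81-fold. Without Gars and Kars, 14 of 15 rose, at the same median of 1.49. Of the 14 mitochondrial synthetases tested 5 rose and 3 fell, with a median log2 change of 0.05. The 3 calls of a fall were each lost in some fits with 1 array left out. Here and below, a gene rose or fell when limma's adjusted p, over all genes tested, was under 0.05. The background was wide, since 18.5% of the 15172 genes tested rose and 17.6% fell, at a median of -0.02. Among the 6438 brighter genes, with a mean of 16 or more in any group of the experiment, 35.2% rose and 31.7% fell. Against the shares of the brighter genes, the mitochondrial counts did not stand out. Rescaling each array by the median of its brighter probe sets moved that median to -0.13 and the split of all genes from 2807 risen and 2677 fallen to 2398 and 3832, and no member that was called changed direction. Arrays of WT with tunicamycin lay wholly above the untreated WT arrays for 16 cytosolic and 5 mitochondrial genes, against 16.2% of all genes tested.

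**Figure D1:**
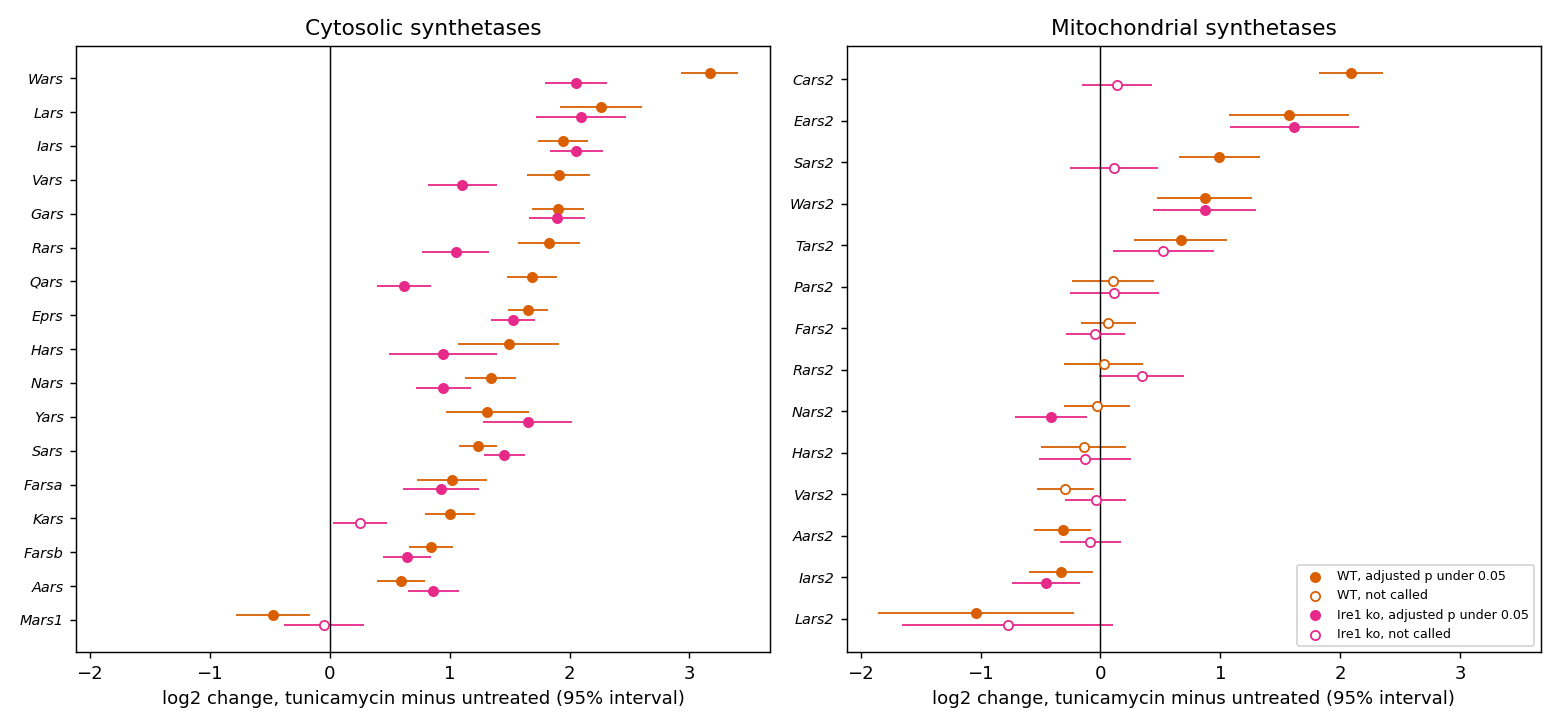
Log2 change (tunicamycin minus untreated, horizontal axis, with 95% interval from limma) of 17 cytosolic and 14 mitochondrial synthetases in WT (orange, 4 arrays against 4) and Ire1 ko (pink, 4 against 3), and filled points passed an adjusted p of 0.05. Wars leads the cytosolic panel at 3.17 in WT, Mars1 lies below 0 at -0.47, and Cars2 is at 2.09 in WT and 0.14 in Ire1 ko.

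The promoters of some members hold an element tied to ATF4. Of the 32 synthetases, 24 had an entry in the RefSeq promoter table (GRCm38.p6), which holds 250 bases before and 50 after the start of the transcript. The 8 without an entry were Hars, Hars2, Lars, Nars, Pars2, Rars, Vars and Wars, so these could not be searched. On either strand the C/EBP-ATF composite element, TGATGNAA, at which ATF4 is known to act, matched 4 of 11 cytosolic promoters (36.4%), 0 of 13 mitochondrial promoters and 4.51% of the 27025 genes in the table. The 4 cytosolic genes were Aars, Gars, Iars and Yars. They are shown because they are the cytosolic promoters that hold the element, with the match in capitals, on the + strand, and with at most 30 bases where the window lies within the transcript.
Aars, chr8:111033670-111033797, match at -112: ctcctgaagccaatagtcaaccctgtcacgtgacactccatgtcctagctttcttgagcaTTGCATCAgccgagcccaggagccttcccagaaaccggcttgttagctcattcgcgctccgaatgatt
Aars, chr8:111033840-111033869, match at 10: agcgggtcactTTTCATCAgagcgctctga
Gars, chr6:55037911-55038000, match at -30: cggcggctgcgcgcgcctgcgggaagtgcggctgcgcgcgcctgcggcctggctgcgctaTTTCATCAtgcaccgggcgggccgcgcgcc
Iars, chr13:49682126-49682155, match at 8: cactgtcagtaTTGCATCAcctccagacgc
Yars, chr4:129189895-129189924, match at 4: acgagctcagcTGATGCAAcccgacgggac
Each position is that of the first base of the match, counted from the start of the transcript. The match of Yars reads along the strand of the gene and the other matches on the opposite strand. The ER stress response element matched 0 of the 24 promoters and 0.137% of all genes in the table. The unfolded protein response element, TGACGTGG, also matched 0 of 24, against 0.714% of all genes. A match is a run of letters and not a measured site. The matched genes rose in WT by log2 changes from 0.59 for Aars to 1.95 for Iars. Whether the element bears on the response was not tested.

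The largest rise was that of Wars, the cytosolic tryptophan enzyme, which interferon is also known to induce. Wars read 26, 24, 21 and 21 on the untreated WT arrays and 225, 225, 195 and 182 after tunicamycin. The groups stood far apart, and the rise was 8.99-fold (95% interval 7.62 to 10.6), a log2 change of 3.17 (SE 0.11; limma adjusted p = 7.4e-12). Of 8 measured interferon-induced genes, 0 rose and 5 fell in the same comparison (1 rose at an unadjusted p under 0.05). Over all genes tested, 18.5% rose and 17.6% fell. Irf1 fell from 38 to 9.5 in mean intensity, while Cxcl9 went from 47 to 78.8 with overlapping arrays. Cxcl10, Gbp2 and Gbp3 were near the floor. Whether interferon has a part in the rise of Wars was not tested.

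Lars, the leucine enzyme that also serves as a leucine sensor, read 84, 62, 74 and 68 untreated and 415, 416, 285 and 282 with tunicamycin. No treated array came near the untreated ones, although the treated arrays split into a higher and a lower pair. The log2 change was 2.26 (SE 0.16; limma adjusted p = 1.22e-08), or 4.80-fold. Iars, the isoleucine enzyme, rose from 175, 150, 184 and 164 to 594, 736, 710 and 562, a log2 change of 1.95 (SE 0.10). Its treated arrays were all above its untreated ones. Eprs, a fused enzyme for glutamate and proline, went from 189, 167, 169 and 172 to 534, 521, 609 and 529, a log2 change of 1.65 (SE 0.08), without overlap. Lars, Iars and Eprs belong to the multisynthetase complex.

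Rars and Qars also belong to the complex. Rars, for arginine, read 100, 100, 118 and 103 untreated and 372, 468, 309 and 360 treated, a log2 change of 1.83 (SE 0.12). Qars, for glutamine, read 95, 96, 105 and 118 untreated and 322, 346, 316 and 345 treated, a log2 change of 1.69 (SE 0.10). Both genes had wide gaps between the groups. Kars, for lysine, rose by a log2 change of 1.01 (SE 0.10; limma adjusted p = 4.13e-07), from 105, 96, 107 and 106 to 217, 222, 204 and 189. It is given by array, as are Mars1, Sars2 and Lars2 below, because of its values and not by the rule for named members. Over the 7 complex enzymes 6 rose, with a median log2 change of 1.69.

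Mars1, the methionine enzyme of the complex, went the other way. It read 166, 164, 137 and 151 untreated and 116, 122, 86 and 125 after tunicamycin, so that every treated array was lower. The log2 change was -0.47 (SE 0.15; limma adjusted p = 0.0172), and without untreated WT replicate 1 or treated WT replicate 3 the adjusted p was 0.0503 and 0.0671. A single probe set measured the gene.

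Outside the complex all 10 enzymes rose, with a median log2 change of 1.33. Gars, for glycine, read 119, 134, 119 and 131 untreated and 465, 464, 550 and 409 treated, a log2 change of 1.90 (SE 0.10). Vars, for valine, read 15, 13, 12 and 12 and then 45, 51, 45 and 54, a log2 change of 1.91 (SE 0.12). In both, the lowest treated array was well above the highest untreated array. Hars, for histidine, read 69, 74, 61 and 59 and then 198, 247, 162 and 145, a log2 change of 1.49 (SE 0.20). Nars, for asparagine, read 420, 437, 439 and 400 and then 1004, 1099, 1157 and 1045, a log2 change of 1.34 (SE 0.10). These groups did not overlap either.

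Yars, the tyrosine enzyme, read 59, 37, 47 and 48 untreated and 99, 128, 114 and 131 treated, a log2 change of 1.32 (SE 0.16). Sars, the serine enzyme, read 191, 200, 199 and 189 untreated and 438, 501, 431 and 466 treated, a log2 change of 1.23 (SE 0.07). Treated and untreated arrays of both were separate. The smallest rises outside the complex were those of Farsa and Farsb, the subunits of the cytosolic phenylalanine enzyme, at 1.02 (SE 0.14) and 0.84 (SE 0.09), and of Aars, for alanine, at 0.59 (SE 0.09; limma adjusted p = 7.13e-05). Synthetases have catalytic domains of 2 unrelated folds, class I and class II. Of the 8 cytosolic class I enzymes 7 rose, with a median log2 change of 1.87, and of the 8 of class II 8 rose, with a median of 1.13. Eprs joins both folds and was counted in neither.

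**Figure D2:**
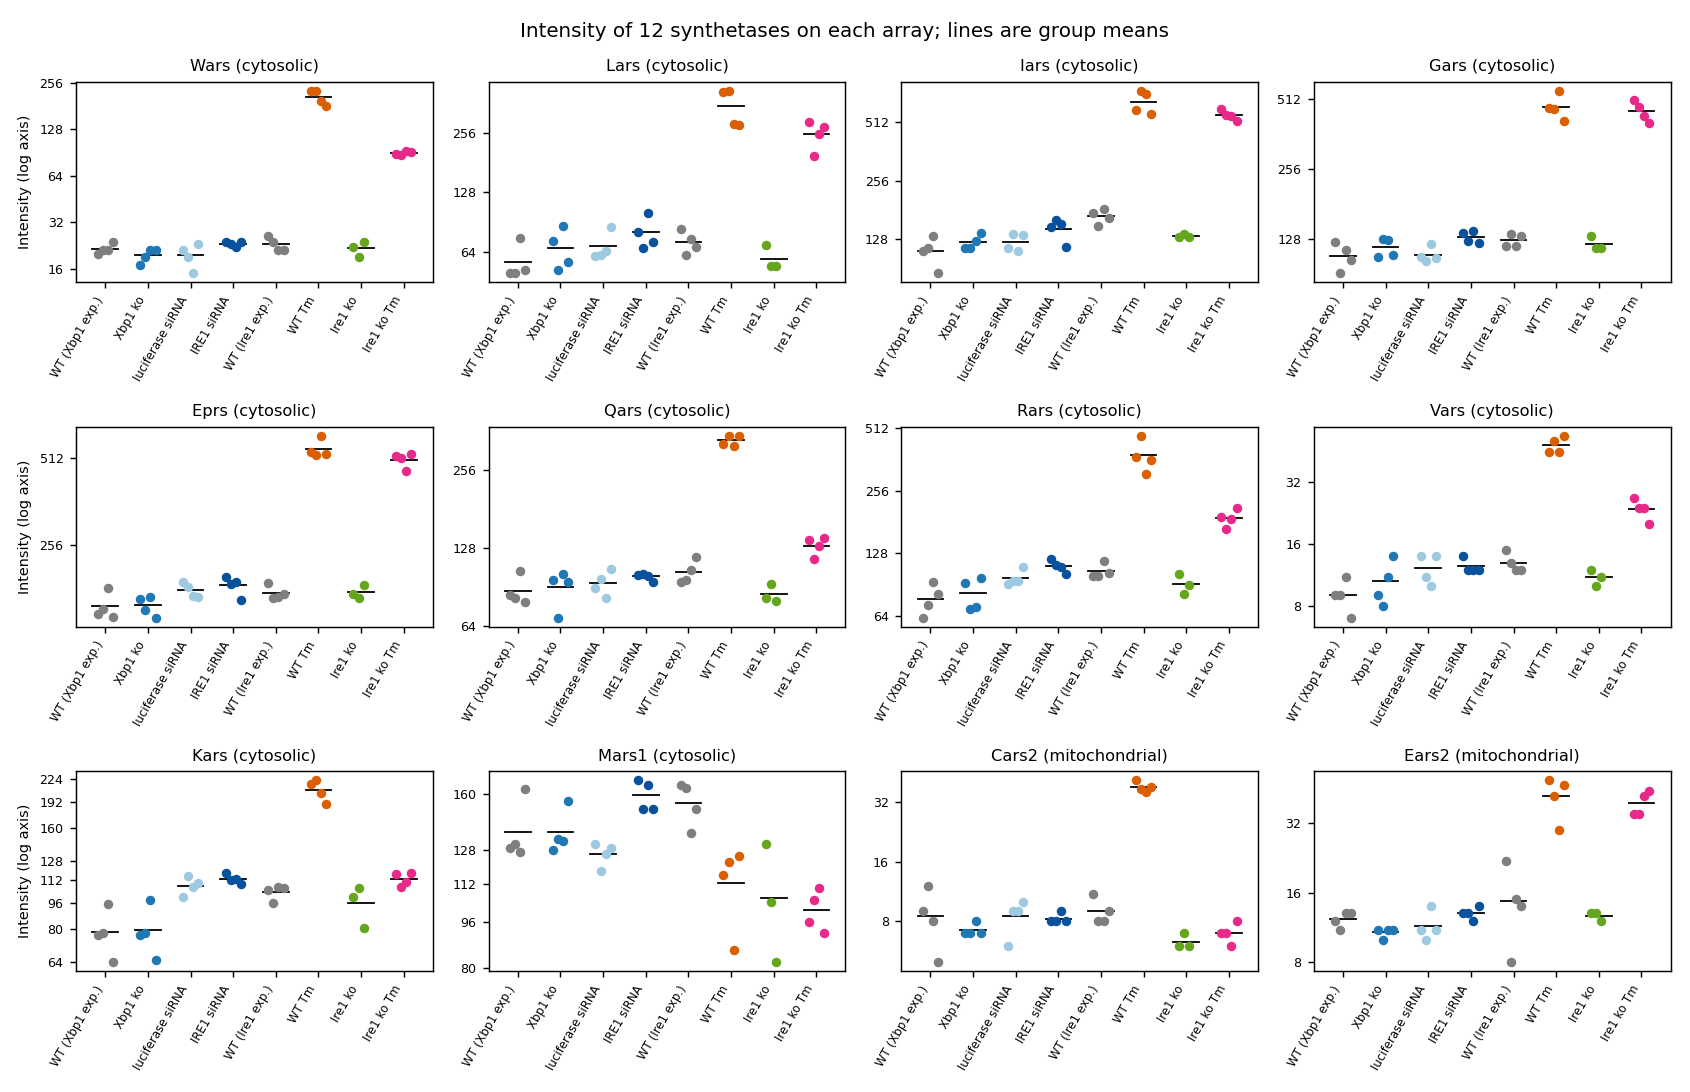
Intensity (vertical log axis, no unit) on each array of 12 synthetases in the 8 groups, with a point per array and a line at the group mean. Tm stands for tunicamycin and exp. for experiment. WT with tunicamycin is the highest group for Wars, Qars, Rars, Vars, Kars and Cars2, while in Gars and Eprs the treated WT and treated Ire1 ko arrays overlap.

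Among the mitochondrial enzymes the response was mixed. Ears2, which charges the mitochondrial tRNA for glutamate, read 22, 8, 15 and 14 in untreated WT and 49, 42, 30 and 47 with tunicamycin. The untreated arrays varied widely, yet all stayed under the treated ones, and the log2 change was 1.57 (SE 0.23; limma adjusted p = 4.23e-05). Cars2, the mitochondrial cysteine enzyme, which can also make cysteine persulfides, read 11, 8, 8 and 9 untreated and 41, 37, 36 and 38 treated. It rose by a log2 change of 2.09 (SE 0.13; limma adjusted p = 1.88e-09) from a level close to the floor, so the fold of 4.25 may understate the change.

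The remaining mitochondrial rises started from dim levels. Sars2, for serine, read 7, 9, 7 and 6 untreated and 19, 14, 13 and 12 treated, a log2 change of 0.99 (SE 0.16). Wars2, for tryptophan, and Tars2, for threonine, rose by log2 changes of 0.87 (SE 0.19) and 0.67 (SE 0.18). The 3 that fell were Lars2, for leucine, at -1.03 (SE 0.38; limma adjusted p = 0.0457), Iars2, for isoleucine, at -0.33 (SE 0.13; 0.0499), and Aars2, for alanine, at -0.31 (SE 0.11; 0.0384). Lars2 read 25, 21, 7 and 27 untreated and 8, 11, 8 and 8 treated, so that untreated replicate 3 lay below every treated array. With 1 of the 15 arrays left out, the call of Iars2 was kept in 2 of 15 fits, that of Lars2 in 4 and that of Aars2 in 10. Fars2, Hars2, Nars2, Pars2, Rars2 and Vars2 were not called, with log2 changes from -0.29 to 0.10. The 95% intervals of Hars2 (-0.49 to 0.22) and Rars2 (-0.30 to 0.36) lie within 1 on that scale. Mars2 was at 3 or 4 on every array and was not tested. In all, 6 members, all mitochondrial, stayed below a mean of 16 in every group.

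Of 14 pairs of a cytosolic and a mitochondrial gene on the array, 13 pairs, for 12 amino acids, were tested. The pair left out was that of methionine. There Mars1, the cytosolic enzyme that fell, was at -0.47 in WT, and Mars2, at 3 or 4 on every array, was not tested. In WT the cytosolic change was above the mitochondrial change in 13 of 13 pairs, with a median difference of 1.55 on the log2 scale. The gap was widest for leucine, at 2.26 for Lars and -1.03 for Lars2, a difference of 3.30. It was narrowest for glutamate, at 1.65 for Eprs and 1.57 for Ears2. Serine was also close, at 1.23 for Sars and 0.99 for Sars2. In Ire1 ko 12 of 13 pairs ran the same way, and glutamate was the exception, at 1.53 for Eprs and 1.62 for Ears2. Fars2, which enters 2 pairs, read 5 or 6 on every array, and Pars2 read 6 to 11. Genes so near the floor show little change, so in their pairs the order follows mainly from the rise of the cytosolic gene. Probe sets of different brightness are compressed to different degrees, so a part of each gap can reflect brightness, and that part was not tested.

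**Figure D3:**
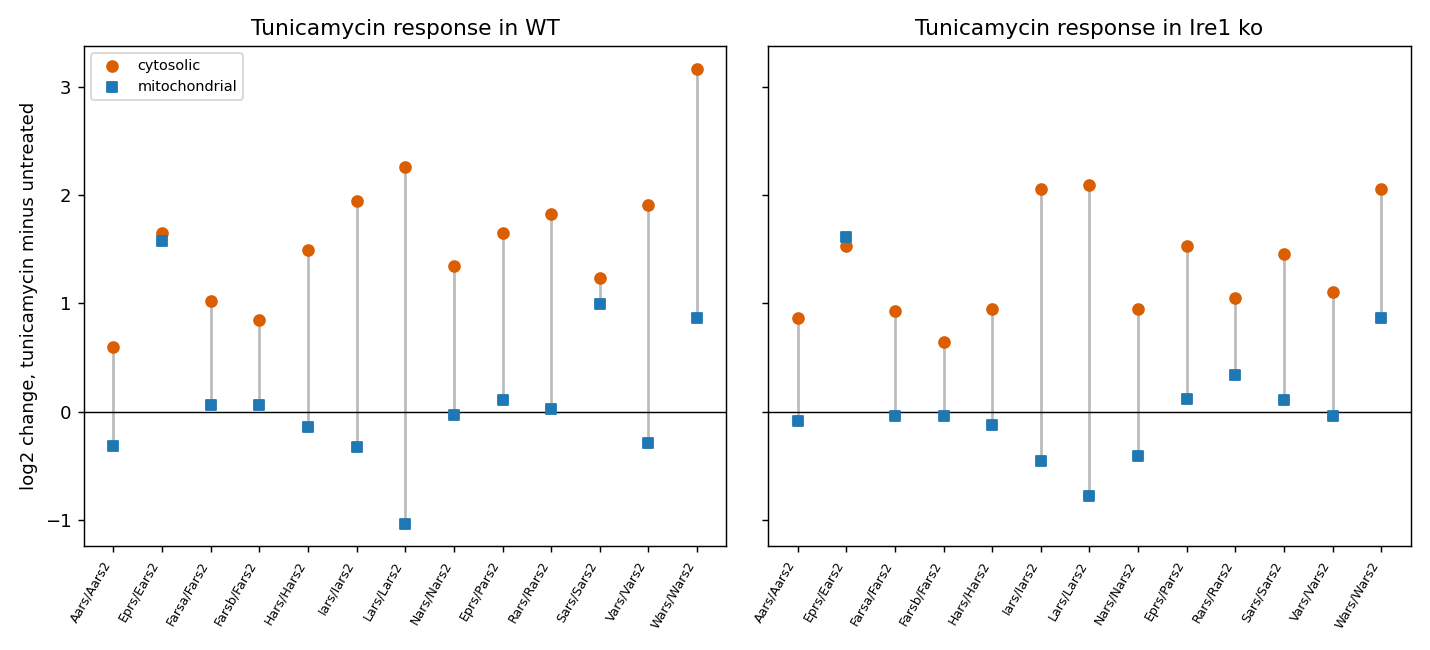
Log2 change with tunicamycin (vertical axis) of the cytosolic gene (orange circle) and mitochondrial gene (blue square) for the same amino acid, joined by a line, in WT (left) and Ire1 ko (right). Eprs and Fars2 appear in 2 pairs each. The circle is above the square in all 13 WT pairs, and Eprs with Ears2 is the pair turned round in Ire1 ko.

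In Ire1 ko liver the cytosolic set also rose, by less for several enzymes. Of 17 cytosolic genes 15 rose and 0 fell (0 fell also at an unadjusted p under 0.05), with a median log2 change of 1.05. Of all genes 17.4% rose and 10.3% fell, and of the 6438 brighter genes 34.3% rose and 20.4% fell. Kars, at 0.25 (SE 0.11; limma adjusted p = 0.0951), and Mars1, at -0.05 (SE 0.16), were not called. Of 14 mitochondrial genes 2 rose, Ears2 at 1.62 (SE 0.25) and Wars2 at 0.87 (SE 0.20), and 2 fell, Iars2 at -0.45 (SE 0.14) and Nars2 at -0.41 (SE 0.14). Without untreated Ire1 ko replicate 2, which stood apart for Ddit3, 16 cytosolic genes rose, and of the mitochondrial genes 2 rose and 0 fell.

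The response itself differed between the genotypes for 7 enzymes. The test was limma's interaction of genotype and tunicamycin, in which 0 members were higher and 7 lower in Ire1 ko (0 higher also at an unadjusted p under 0.05). They were Wars, Qars, Vars, Rars and Kars of the cytosolic set and Cars2 and Sars2 of the mitochondrial set. Over all genes tested, 3.58% were called higher and 3.95% lower, and over the 6438 brighter genes 7.36% and 8.29%. The median interaction was -0.16 over the cytosolic set, 0.01 over the mitochondrial set and 0.05 over all genes. Without untreated WT replicate 1 the cytosolic median was -0.24 and the mitochondrial median -0.12, and without untreated WT replicate 2 the cytosolic median was -0.11.

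Cars2 stayed near the floor in Ire1 ko. It read 6, 7 and 6 in untreated Ire1 ko and 7, 7, 6 and 8 with tunicamycin, while the treated WT arrays lay between 36 and 41. In Ire1 ko the log2 change was 0.14 (SE 0.14; limma adjusted p = 0.532), and the interaction was -1.95 (SE 0.19; adjusted p = 7.49e-06). The 2 treated groups did not overlap, and Ire1 ko stayed within 3 units of the array median of 5. The fitted difference between the treated genotypes, -2.45 (SE 0.13), and the interaction are therefore set by the floor and give no exact size. The second probe set of Cars2 averaged 4.94 and measured nothing above the floor.

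Wars read 22, 19 and 24 in untreated Ire1 ko and 88, 87, 92 and 91 with tunicamycin. It still rose, by a log2 change of 2.05 (SE 0.12), but every treated Ire1 ko array was below the treated WT arrays. The interaction was -1.12 (SE 0.17; limma adjusted p = 0.000425). The dimmer probe sets of Wars gave interactions of -1.10 and -1.33.

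Qars read 82, 93 and 80 and then 137, 116, 130 and 140 in Ire1 ko, against 316 to 346 in treated WT. The rise was 1.54-fold, the treated genotypes lay far apart, and the interaction was -1.07 (SE 0.14; limma adjusted p = 0.000172). Its probe sets did not all behave alike: another bright one gave an interaction of -1.11, but a dim one, whose mean was 18.5, gave 0.15, and the last averaged 5.19, at the floor. With the mean of all probe sets of each gene the interaction of Qars was -0.45 with an adjusted p of 0.0745.

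Rars read 102, 82 and 90 in untreated Ire1 ko and 192, 167, 186 and 211 after tunicamycin, an interaction of -0.78 (SE 0.18; limma adjusted p = 0.0137). Vars read 12, 10 and 11 and then 27, 24, 24 and 20, an interaction of -0.80 (SE 0.18; adjusted p = 0.0122). Both rose in Ire1 ko and reached levels below all treated WT arrays. Kars read 100, 106 and 81 and then 117, 107, 111 and 118, an interaction of -0.75 (SE 0.14; adjusted p = 0.00343), and its treated Ire1 ko arrays were near the untreated WT arrays. Sars2 read 9, 8 and 10 and then 10, 10, 8 and 11, an interaction of -0.88 (SE 0.24; adjusted p = 0.0311), close to the floor. Its call was lost when any of 7 single arrays was left out.

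For other strongly responding enzymes no difference in response was called. Gars read 131, 117 and 117 in untreated Ire1 ko and 507, 470, 431 and 404 treated, an interaction of -0.01 (95% interval -0.32 to 0.31). Iars read 131, 137 and 132 and then 600, 554, 551 and 516, an interaction of 0.11 (-0.19 to 0.41). Eprs read 173, 167 and 185 and then 520, 509, 462 and 526, an interaction of -0.13 (-0.38 to 0.12). Treated arrays of both genotypes overlapped in these 3 genes.

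Lars read 69, 54 and 54 in untreated Ire1 ko and 291, 196, 253 and 274 treated, an interaction of -0.16 (95% interval -0.67 to 0.34). Sars read 187, 176 and 173 and then 483, 527, 492 and 462, an interaction of 0.22 (-0.01 to 0.46). Yars read 40, 25 and 27 and then 98, 84, 98 and 98, an interaction of 0.34 (-0.17 to 0.84). A difference that was not called does not show that the genotypes respond alike, and the intervals of Lars and Yars are wide. Ears2 read 13, 13 and 12 and then 35, 35, 42 and 44, an interaction of 0.04 (-0.69 to 0.77). Hars, at 47, 37 and 53 and then 124, 68, 71 and 96, and Nars, at 345, 341 and 241 and then 611, 601, 550 and 590, had interactions of -0.54 (-1.16 to 0.07) and -0.40 (-0.71 to -0.09; limma adjusted p = 0.132). Across the 17 cytosolic genes the WT and Ire1 ko changes correlated at Pearson's r = 0.777 and Spearman's rho = 0.782, and the Ire1 ko change was the smaller for 12. Genes are not independent replicates, and all share the same arrays.

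Treated Ire1 ko set against treated WT gave 0 cytosolic genes higher and 8 lower, and 0 mitochondrial genes higher and 2 lower (0 higher in either set at an unadjusted p under 0.05). Of all genes, 9.68% were higher and 8.5% lower, and of the 6438 brighter genes 20% and 17%. The 8 were Qars at -1.35 (SE 0.10), Wars at -1.20 (SE 0.11), Hars at -1.08 (SE 0.20), Vars at -1.04 (SE 0.12), Rars at -0.99 (SE 0.12), Kars at -0.88 (SE 0.10), Nars at -0.87 (SE 0.10) and Farsb at -0.33 (SE 0.09). The call of Farsb was lost with a common median (limma adjusted p = 0.0554) and with the mean of all probe sets (0.0600). The mitochondrial genes were Cars2 and Sars2, the latter at -0.56 (SE 0.16). This comparison shares its arrays with the interaction and is not separate evidence.

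The genotypes differed in other measures at the same time. The 5 Kupffer cell markers summed to 361 to 507 in treated WT and 571 to 820 in treated Ire1 ko, and none of the 5 was at the floor. Untreated, they summed to 569 to 1164 in WT and 542 to 1825 in Ire1 ko. The sums lean on the brightest marker, Cd5l, at 212 to 1155 over all 31 arrays. Adgre1, at 15 to 63, and Csf1r, at 14 to 70, add little. Whether the 5 moved together is not shown by a sum. The 7 hepatocyte markers summed to 33507 to 34311 in treated WT and 36052 to 38738 in treated Ire1 ko, against 35435 to 38277 and 34653 to 38329 untreated. The erythroid marker Alas2 read 183 to 269 in untreated and 105 to 154 in treated WT, and 145 to 301 and 113 to 176 in Ire1 ko. The part of any of these in the responses above was not tested.

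**Figure D4:**
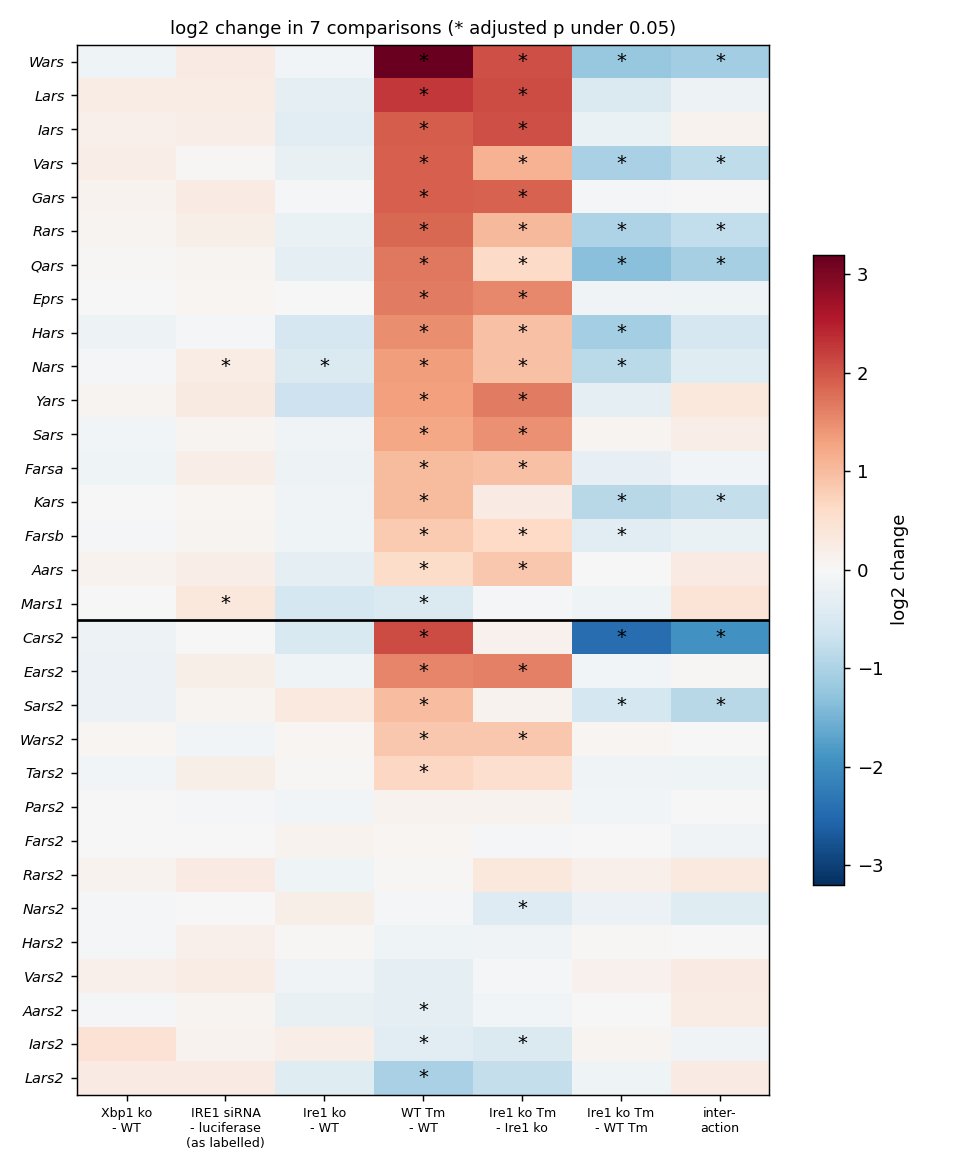
Log2 change (colour, scale at right) of 31 tested synthetases in 7 comparisons, with cytosolic genes above the black line and mitochondrial genes below it, and an asterisk where the adjusted p was under 0.05. Red is higher in the group named before the minus sign. The columns for Xbp1 ko, siRNA and untreated Ire1 ko are pale, with 0, 2 and 1 calls.

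Without tunicamycin few synthetases differed between genotypes. In Ire1 ko against untreated WT 1 of 17 cytosolic genes was called, Nars, which was lower at 345, 341 and 241 against 420, 437, 439 and 400. The arrays did not overlap, but replicate 3 of Ire1 ko stood lowest, and the log2 change was -0.47 (SE 0.11; limma adjusted p = 0.0487), just past the threshold. Of all genes 0.863% were called lower and 0.0791% higher. The call was lost without any of 13 of the 15 arrays of the fit, and without Ire1 ko replicate 3 the log2 change was -0.30 with a limma adjusted p of 0.143. It was also lost in 5 of 9 settings. The changes were negative for 16 of 17 cytosolic genes, with a median of -0.24. The median was -0.03 over all genes and -0.06 over the 6438 brighter genes. The shares of all genes with a negative change, or lower at an unadjusted p under 0.05, are not given here. At that unadjusted threshold 7 cytosolic genes were lower. These included Yars at -0.65 (SE 0.18), Mars1 at -0.57 (SE 0.16) and Hars at -0.54 (SE 0.21), none of which passed adjustment. No mitochondrial gene was called (0 of 14, with 1 lower at an unadjusted p under 0.05), and the median was -0.03. Atf4 was lower in the same comparison, at 156, 251 and 169 in Ire1 ko against 276 to 320 in WT, a log2 change of -0.67 (SE 0.14; limma adjusted p = 0.0228). The other stress genes counted further below moved both ways. Slc3a2 averaged 138 in WT and 88.7 in Ire1 ko. Asns averaged 55 and 136 in these groups, and Slc6a9 87.5 and 129, with overlapping arrays in both genes. Whether Atf4 bears on the synthetases here was not tested.

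In Xbp1 ko against WT littermates 0 of 31 tested synthetases were called by limma, and 1, Iars2 at 0.46 (SE 0.17; adjusted p = 0.25), had an unadjusted p under 0.05. Of all genes 0.642% were higher and 2.07% lower. The cytosolic median was 0.02 and the mitochondrial median -0.02. Nars read 376, 409, 388 and 380 in WT and 368, 380, 372 and 406 in Xbp1 ko, with a difference of -0.03 (95% interval -0.15 to 0.10). Wars, at 20, 21, 21 and 24 against 17, 19, 21 and 21, differed by -0.14 (-0.39 to 0.10). The groups overlapped in both. The widest interval among the members tested was -0.85 to 0.75, for Hars2.

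In the siRNA experiment, 2 of 17 cytosolic genes and 0 of 14 mitochondrial genes were called, all higher in the libraries labelled IRE1 siRNA (2 mitochondrial genes were higher at an unadjusted p under 0.05). Mars1 read 131, 118, 126 and 129 in those labelled luciferase siRNA and 169, 151, 166 and 151 in those labelled IRE1 siRNA. Nars read 331, 314, 328 and 338 and then 406, 380, 398 and 372. Neither overlapped, and the log2 changes were 0.34 (SE 0.06; limma adjusted p = 0.0368) and 0.25 (SE 0.04; adjusted p = 0.0335), against 0.649% of all genes called higher and 1.14% called lower. Changes were positive for 16 of 17 cytosolic genes, with a median of 0.20. The median was 0.04 over all genes and 0.08 over the 5897 brighter genes. The share of all genes with a positive change is not given here. Mars1 lost its call without any of the 8 arrays, and Nars without 6 of them. Because Ern1 contradicts the labels here, the direction rests on labels that may be exchanged.

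Set side by side over the 8 groups, the cytosolic set varied little outside tunicamycin. The median log2 intensity of the 17 genes on an array averaged 6.45 ± 0.17 (SD, n = 4) in the WT littermates of Xbp1 ko, 6.54 ± 0.17 in Xbp1 ko, 6.71 ± 0.06 and 6.83 ± 0.06 in the libraries labelled luciferase and IRE1 siRNA, and 6.78 ± 0.12 in untreated WT of the Ire1 experiment (each n = 4). Untreated Ire1 ko averaged 6.58 ± 0.19 (SD, n = 3). The treated groups stood apart. Treated WT averaged 8.26 ± 0.14 and treated Ire1 ko 7.54 ± 0.12 (SD, each n = 4). The mitochondrial median lay between 3.46 ± 0 in Xbp1 ko and 3.80 ± 0.15 in treated WT (SD, n = 4). By this median, treated and untreated arrays of the Ire1 experiment overlapped in both genotypes. The mean log2 intensity of the 15 genes did not overlap in WT, at 3.51 to 3.83 untreated and 3.90 to 4.02 treated. In Ire1 ko it did, at 3.53 to 3.73 and 3.67 to 3.86. The order of the untreated groups spans experiments that differ in age and treatment and was not tested.

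**Figure D5:**
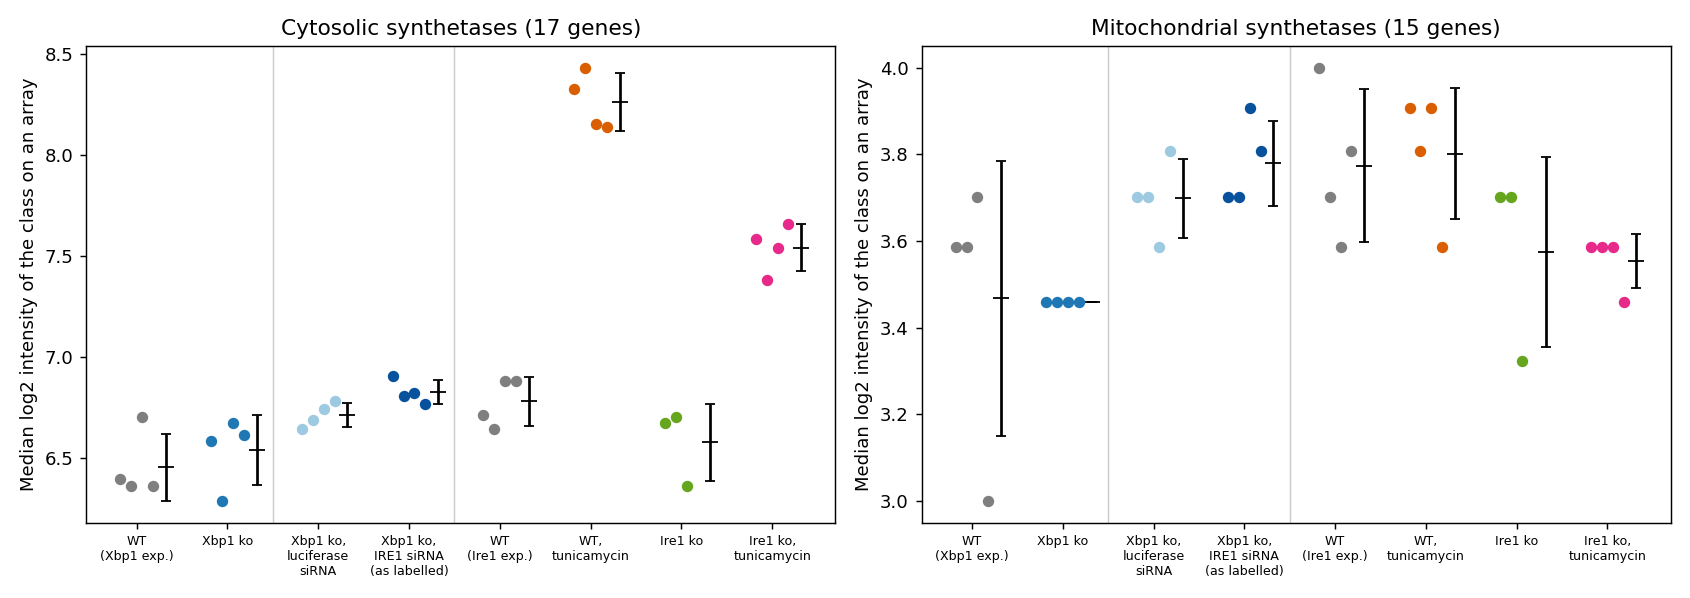
Median log2 intensity of the 17 cytosolic (left) and 15 mitochondrial (right) synthetases on each array (points) in the 8 groups, with the group mean and SD beside them. The vertical axes differ and do not start at 0. The cytosolic medians of the treated WT arrays (mean 8.26) and treated Ire1 ko arrays (mean 7.54) lie above all untreated arrays. The mitochondrial medians of treated and untreated arrays overlap.

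Genes that work with the synthetases moved in part with them. Over all genes tested, 18.5% rose and 17.6% fell in WT, and 17.4% rose and 10.3% fell in Ire1 ko. The 3 scaffold genes of the multisynthetase complex all rose in WT, Aimp2 at 1.77 (SE 0.11), Aimp1 at 1.47 (SE 0.13) and Eef1e1 at 1.33 (SE 0.16), and all rose in Ire1 ko. For these 3 genes limma called 0 interactions, while Aimp1 at -0.56, Aimp2 at -0.53 and Eef1e1 at 0.64 each had an unadjusted p under 0.05. Of 12 other genes for tRNA charging, editing and maturation 4 rose and 2 fell in WT. Yrdc, which makes a modified adenosine next to the anticodon, went from 29 to 206 in mean intensity, a log2 change of 2.84 (SE 0.14), with an interaction of -0.71 (SE 0.20; limma adjusted p = 0.0431). Gatc, a subunit of the mitochondrial amidotransferase that completes glutaminyl-tRNA, rose by 1.88 (SE 0.15), while Mtfmt, which formylates the mitochondrial initiator tRNA, fell by 0.70 on the log2 scale. Of 6 genes, cytosolic elongation factors and the kinase gene Eef2k, 5 rose and 0 fell, with a median of 0.36. Eef2k encodes a kinase that inhibits EEF2 and is itself no elongation factor. Its mean was 8.75 in untreated WT, close to the floor, and 16.3 in treated WT. Of 7 mitochondrial translation factor genes 1 rose and 3 fell, among them Gfm1 at -0.82 (SE 0.10).

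The targets of ATF4 and its partners rose with the cytosolic synthetases. Of 27 measured genes of the integrated stress response 20 rose and 1 fell in WT, with a median log2 change of 2.28. In Ire1 ko 20 rose and 1 fell, with a median of 2.06. The shares over all genes tested were 18.5% and 17.6% in WT and 17.4% and 10.3% in Ire1 ko. In WT, Atf4 went from 299 ± 18.5 to 1460 ± 180 (SD, n = 4 each). The Ire1 ko arrays went from 192 ± 51.5 (SD, n = 3) to 899 ± 40.2 (SD, n = 4), and the Atf4 interaction was -0.02 (95% interval -0.42 to 0.37). The interaction was lower for 4 genes of the list and higher for 2, against 3.95% and 3.58% of all genes tested. Chac1, which breaks down glutathione, reached 374 ± 39.5 in treated WT and 47.8 ± 4.65 in treated Ire1 ko (SD, n = 4 each), an interaction of -2.30 (SE 0.27; limma adjusted p = 4.64e-05). Slc3a2, the heavy chain of amino acid transporters, had an interaction of 0.74 (SE 0.19; adjusted p = 0.0227).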

How the data were processed

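RNA of 31 livers was measured on Affymetrix arrays. The deposited values are probe set intensities that the authors made with RMA from the affy package, per the submitters' processing notes, which give no versions. They are linear and rounded to whole numbers, and whether all arrays were normalized together is not stated in the sources used here. Of 45037 probe sets, 28898 have 1 gene symbol in the platform annotation, 551 have several and 15588 have none. Deposited intensities were converted to log2, and each experiment was fitted with limma 3.58.1 (R 4.3.3), without a block, with an intensity trend and Benjamini-Hochberg adjustment over all genes tested (14008, 14030 and 15172 genes in the Xbp1, siRNA and Ire1 experiments). Genes had to exceed the 30th percentile in 3 or more arrays. The code was tested on simulated data. Members, gene lists and rules were chosen with earlier results of these data known. Members were named by array where they were called with the largest changes, 14 in all. Nothing beyond the labels says that arrays are separate animals, so p-values measure the spread between arrays, whose number limits precision. Alternatives covered filters, scaling, pseudocount, probe set choice, the fit, a replicate block and each array left out.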

Additional observations from a re-analysis of the deposited data

Results flagged for a closer look

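Of 112 groups of arrays examined, 13 (11.6%) held an array far from the others of its group. Chance gives about 1 in 20 for values without ties. Rounded values tie often, and ties among the other arrays are enough to set an array apart, so the 2 shares are not alike. Untreated Ire1 ko, with 3 arrays, was not examined. Among the cytosolic medians (log2), 1 WT littermate of Xbp1 ko was high at 6.70. Among the mitochondrial medians, 1 WT littermate was low at 3.0 and 1 treated Ire1 ko array was low at 3.46. For Cars2 the highest array stood apart in Xbp1 ko, at an intensity of 8, and in the libraries labelled IRE1 siRNA, at 9, and for Ears2 the lowest array in Xbp1 ko, at 10. These are steps of 1 between rounded values near the floor. Eprs stood apart at 609 in treated WT. Lars did so at 75 in WT littermates of Xbp1 ko and at 86 in the libraries labelled luciferase siRNA. Rars did so at 110 in the latter group and at 118 in untreated WT of the Ire1 experiment. Vars stood apart at 14 in the libraries labelled IRE1 siRNA and Yars, on the low side, at 84 in treated Ire1 ko. The other arrays of these groups were tied, at 12 for Vars and 98 for Yars.

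The response to tunicamycin differed between the genotypes, by limma's interaction, for 7 members. As Ire1 ko minus WT on the log2 scale, it was -1.95 for Cars2, -1.12 for Wars, -1.07 for Qars, -0.88 for Sars2, -0.80 for Vars, -0.78 for Rars and -0.75 for Kars.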

How the results depend on the processing

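Of 64 calls of a member in any comparison, 50 were kept with each array left out and in each of the 9 alternative settings that tested the gene. None of the 64 changed direction. The filter at a group mean of 16 dropped Sars2 and Wars2. The calls among the 50 of Sars2 (tunicamycin in WT) and Wars2 (tunicamycin in either genotype) therefore rest on 8 settings. Of the 17 cytosolic genes, 1 was called in untreated Ire1 ko. That count was 0 with no filter, a common median, a pseudocount of 16, no intensity trend or a replicate block, 3 in one fit of 31 arrays, and 0 to 3 with an array left out. In the siRNA experiment 2 cytosolic genes were called, against 0 under quantile normalization, a common median, one fit of 31 arrays or a replicate block, 1 with the mean of all probe sets, and 0 to 1 with an array left out. For the mitochondrial genes, a filter at a group mean of 16 left 5 calls in place of 8 for tunicamycin in WT, 1 in place of 2 between the treated genotypes and 1 in place of 2 for the interaction, since fewer genes were tested. Vars, Cars2 and Ears2 pass that filter in the Ire1 experiment only through treated groups. Leaving out an array gave 5 to 8, 1 to 2 and 1 to 2 for these, and 2 to 4 for tunicamycin in Ire1 ko. With a replicate block the interaction kept 1 mitochondrial call, and Sars2 had an adjusted p of 0.0636. Same-numbered arrays did not all deviate together: the correlation of their deviations ran from 0.02 to 0.27 in the Xbp1 experiment, -0.15 to 0.06 in the siRNA experiment and -0.18 to 0.29 in the Ire1 experiment, and exceeded 0.1 in 2 of 4, 0 of 4 and 6 of 21 pairs, so the numbers were not taken as a pairing. Class medians near 0 changed sign with an array left out: the mitochondrial interaction (-0.12 to 0.04), untreated mitochondrial Ire1 ko (-0.09 to 0.05), and Xbp1 ko in the cytosolic (-0.01 to 0.11) and mitochondrial set (-0.04 to 0.02). Other causes of these differences were not tested. Probe sets near the floor of 3 show no small change.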

Other observations

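The summed intensity of 5 hepatic endothelial markers was lower after tunicamycin in WT, at 406 to 523 untreated and 273 to 385 treated. In Ire1 ko the sums overlapped, at 331 to 483 and 339 to 533. The brightest of these markers was Clec4g, at 142 to 391 over all arrays, while Pecam1 stayed at 5 to 11. Of the 8 interferon-induced genes, 3 fell and 0 rose with tunicamycin in Ire1 ko, with a median log2 change of -0.50. Over all genes tested, 10.3% fell and 17.4% rose there.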
